A study of Mus musculus with 6 samples.

Results

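The genes described here build and move microtubules and the structures that organise them: centrosome genes (Cep), centromere genes (Cenp), kinesins (Kif), alpha- and beta-tubulins (Tuba, Tubb), genes named for gamma-tubulin (Tubg), cytoplasmic dynein chains (Dync, Dynl) and NIMA-related kinases (Nek). They were chosen by name, with earlier results of these data known. Each has a probe whose only platform symbol begins with one of those 9 stems, followed by a digit for Cep, Kif and Nek. The rule found 84 genes on 105 probes, of 10698 genes with 1 platform symbol in all. Each was measured in RAW 264.7 cells, a mouse macrophage line, of which some labels write the name as RAW 264.4. Treated cells received lipopolysaccharide (LPS, the endotoxin of Gram-negative bacteria, 100 ng/ml) and LPS-binding protein (LBP, the serum protein that hands LPS to its receptor, 100 pM) together for 2 h, and untreated cells were cultured for 2 h. Neither agent alone was analysed here. Total RNA of both was hybridised together on each of 6 2-colour arrays, as 3 numbered sets of a dye-swap pair: treated RNA in Cy5 on 3 arrays and in Cy3 on the other 3. Nothing in the labels says that the sets were separate cultures, so the p-values measure the spread between these sets, which may be technical.

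Microtubules are polymers of alpha- and beta-tubulin that grow from gamma-tubulin rings at the centrosome. Kinesins mostly walk toward their growing ends and cytoplasmic dynein toward the centrosome, carrying organelles in resting cells and arranging the spindle in dividing ones. Centromere proteins build the kinetochore on which spindle microtubules pull, and Nek kinases act on centrosomes and spindles. In macrophages the same polymers serve migration, phagocytosis and vesicle traffic, and Nek7 is also known as a partner of the NLRP3 inflammasome.

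Values are log2 ratios of treated over untreated, with the sign of the arrays carrying treated RNA in Cy3 turned, so that a positive value means more transcript after treatment. A gene's value is the mean of its probes measured on all 6 arrays, then of the arrays of a set, given as mean ± SD of 3 sets. "Rose", "fell", "higher" and "lower" are used of genes with a limma p under 0.05 after Benjamini-Hochberg adjustment over all 11231 features. Of the 84 genes, 77 had such a probe and were tested. The array medians lay between -0.016 and 0.014 and exact zeros, read as missing, filled 9.12% to 12.4% of an array. On an array of ratios the level of a gene is not measured, so cell type markers could be read only as ratios. Of 9 tested macrophage markers 2 were higher and 2 lower. Of 16 tested markers of lymphocytes, fibroblasts, endothelium and epithelium 0 passed by limma. Among those 16, 4 had an unadjusted p under 0.05, as did 3150 of all 11231 features. In such bulk RNA, fewer cells of a kind and less RNA per cell cannot be told apart.

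Centrosome and Nek transcripts that changed went down, as did the 2 of 20 kinesins that changed. The beta-tubulin and the centromere gene with the largest values went up, and all changes were at most 1.36-fold. Of the 77 tested genes, 12 (15.6%) fell and 2 (2.60%) rose, and 63 did not pass the threshold. Over all 11231 features, 14.8% passed, 7.35% higher and 7.45% lower. The median of the 77 genes was -0.071 (-0.068, -0.079 and -0.069 in sets 1, 2 and 3), against -0.0041 over all features, and 56 of the 77 means lay below 0 (72.7%, against 51.8% of all features). On all 6 arrays 16 of them (20.8%) stood below 0 and 5 (6.49%) above, against 10.2% and 8.93% of all features. These counts and medians describe the list and carry no test of it. Against a change of 1.5-fold, limma's test passed 0 of the 77 and 1.26% of all features, with 0 of the 77 also at an unadjusted p under 0.05.

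**Figure D1:**
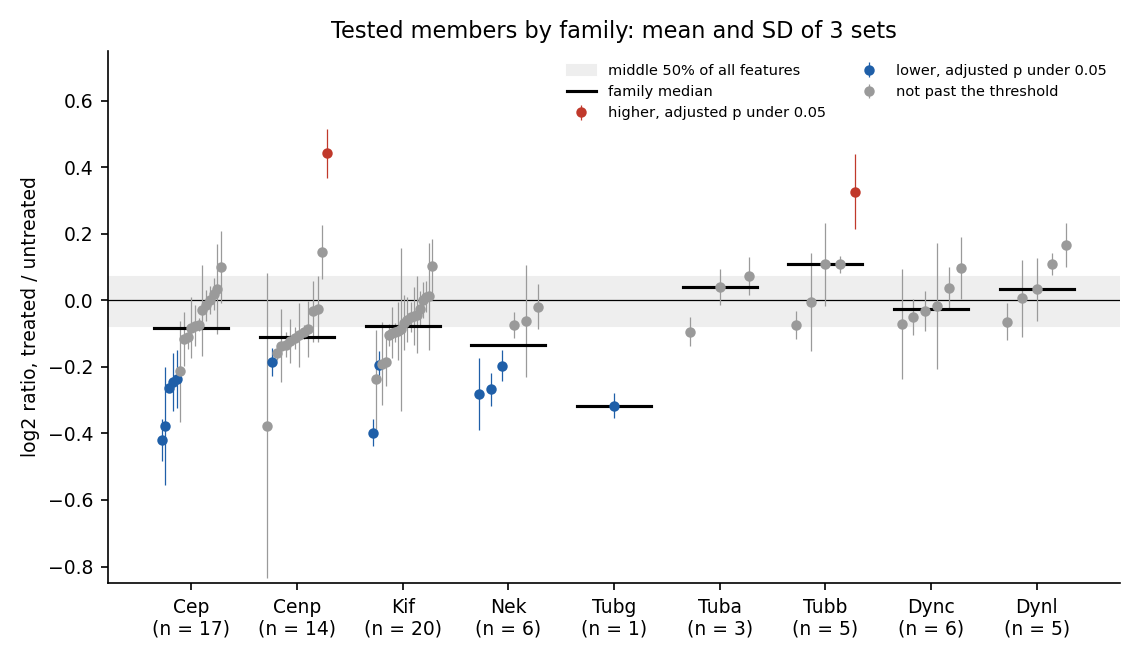
Mean log2 ratio of treated over untreated for each tested gene, grouped by family along the x axis and sorted within it, with bars for the SD of 3 sets, black lines for family medians and a grey band for the middle 50% of all 11231 features. Blue points fell and red points rose. The 5 Cep and 3 Nek genes that fell lie below the band, and Cenpc1 and Tubb6 are the highest points.

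Counts and medians are given by family, to be read beside 7.45% lower and 7.35% higher over all features. Among the genes of the Cep stem 5 of 17 fell (29.4%) and 0 rose, with a median of -0.082. The 5 include Cep83os, which is no centrosome protein gene, and the 17 also include Cep295nl, named after another gene. Nek kinases gave 3 of 6 lower and 0 higher, with all 6 means below 0 and a median of -0.13. Kinesins had 2 of 20 lower and 0 higher (median -0.077, 16 means below 0). Centromere genes had 1 of 14 higher and 1 lower, a share of 7.14% in each direction, close to that of all features, and 12 of 14 means lay below 0 (median -0.11). Tubgcp4, the only gene of the Tubg stem, fell. Alpha- and beta-tubulins together had 1 of 8 higher (12.5%) and 0 lower, with medians of 0.039 and 0.11. None of the 11 dynein chains passed by limma, with medians of -0.025 for Dync and 0.033 for Dynl. An unadjusted p under 0.05 was seen for 2 of them (Dynll1 and Dynlrb1), against 3150 of all 11231 features. Whether the families differ from each other was not tested.

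The largest change at the centrosome was in Cep57l1, a relative of the pericentriolar protein gene Cep57. With treated RNA in Cy5 its ratios were -0.39, -0.58 and -0.30 in sets 1, 2 and 3, and with treated RNA in Cy3 they were -0.55, -0.29 and -0.40. Both orientations overlap and all 6 values lie below 0. The gene fell 1.34-fold (-0.42 ± 0.062, 95% interval -0.54 to -0.30, adjusted p = 0.0026). Its 2 probes, read separately, had means of -0.43 and -0.41. Cep57 itself, which binds microtubules and helps to hold the pericentriolar material together, read -0.29, -0.35 and -0.30 with treated RNA in Cy5 and -0.22, -0.18 and -0.24 in Cy3. Its sets were the closest of any centrosome gene that fell, at -0.26 ± 0.010 (1.20-fold, adjusted p = 0.0110). The change of Cep57 lost its call without set 3 (-0.26, adjusted p = 0.130), whereas Cep57l1 kept it whichever set was left out (adjusted p = 0.0216, 5.28e-04 and 0.0315).

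Cep250 encodes C-Nap1, the linker that ties the centrioles together between divisions, and Nek2 is the kinase known to release it. On the arrays with treated RNA in Cy5, Cep250 stood at -0.093, -0.58 and -0.26, and on those with it in Cy3 at -0.20, -0.069 and -0.21. Set 2 holds both the lowest and the highest of these values. The mean was -0.24 ± 0.088 (adjusted p = 0.0308), and the call was lost without set 2 (-0.19, adjusted p = 0.0700) and without set 3 (-0.24, adjusted p = 0.213). Nek2 was tighter, with -0.21, -0.14 and -0.060 in Cy5 and -0.26, -0.28 and -0.23 in Cy3. All values of Nek2 were below 0, the Cy3 arrays being the lower ones. It fell 1.15-fold (-0.20 ± 0.047, adjusted p = 0.0386) and did not pass without set 1, 2 or 3 (adjusted p = 0.118, 0.0791 and 0.179).

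Cep170, a protein of the appendages of the mother centriole, is a fall that only one dye orientation shows. With treated RNA in Cy5 its values were -0.45, -0.70 and -0.35, and with treated RNA in Cy3 -0.023, 0.028 and 0.031. The orientations do not overlap and the second lies at 0. The mean of the sets, -0.24 ± 0.087, passed with an adjusted p of 0.0275, but the mean of the Cy3 arrays alone was 0.012 (adjusted p = 0.907). Without set 1, 2 or 3 the adjusted p was 0.0910, 0.0588 and 0.115. Cep170 had the smallest adjusted p of a dye term among the 77 genes, 0.0688, and it is the only one of the 14 changed genes without the same sign on 6 of 6 arrays. Cep97, which keeps centrioles from growing cilia, had the same shape, with Cy5 arrays at -0.21, -0.87 and -0.27 and Cy3 arrays at -0.0029, 0.095 and -0.024, and did not pass (-0.21 ± 0.15, adjusted p = 0.0901).

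Cep83os is no centrosome protein gene but a transcript named for lying opposite Cep83, which the name rule brought in. It ran from -0.56 to -0.072 over the 6 arrays, both extremes with treated RNA in Cy5, and its mean was -0.38 ± 0.18 (adjusted p = 0.0191). The call of Cep83os was lost without set 3 (-0.35, adjusted p = 0.168). Cep83, a protein of the distal appendages needed to build a cilium, had the highest mean of the centrosome genes, 0.10 ± 0.11 (adjusted p = 0.319), with 4 of 6 arrays above 0. The means of its 3 complete probes spanned 0.24. Without Cep83os and Cep295nl, which is also named after another gene, 11 of 75 tested genes (14.7%) fell. The other Cep genes lay between -0.12 (Cep131) and 0.033 (Cep295nl) and did not pass.

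**Figure D2:**
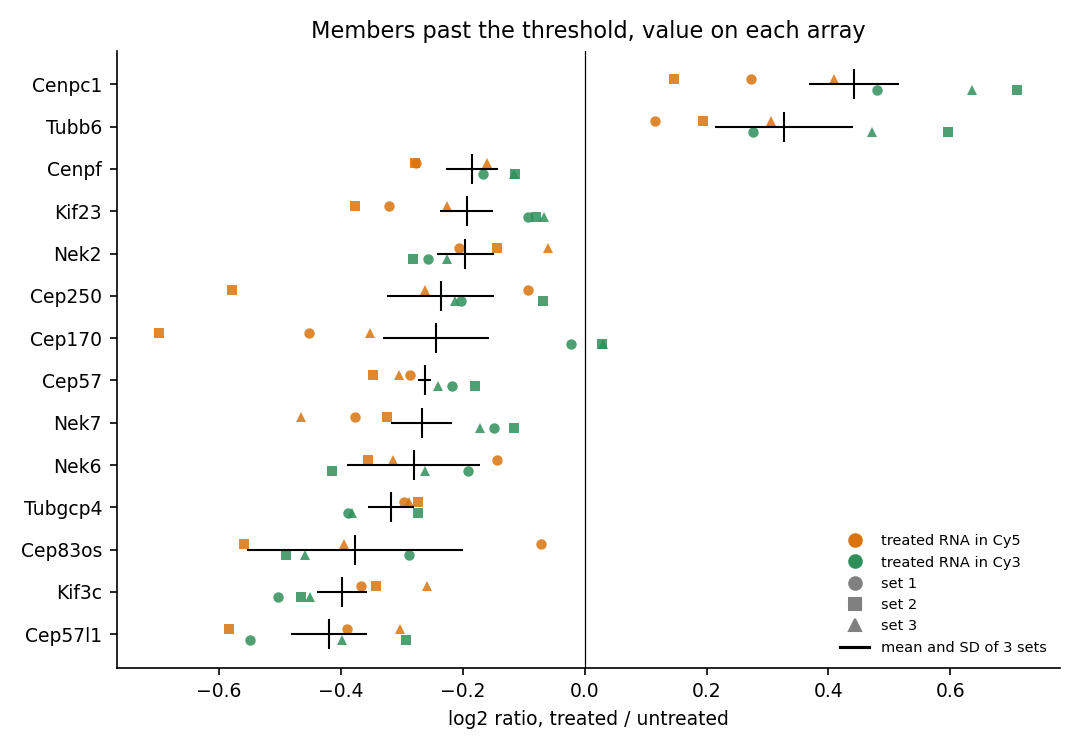
Log2 ratio of treated over untreated on each array for the 14 genes past the threshold, with orange for treated RNA in Cy5, green for treated RNA in Cy3, a marker shape for each set, and bars for the mean and SD of 3 sets. For 13 genes every point lies on one side of 0, and for Cep170 only the orange points lie clearly below it.

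The centromere family holds the largest change of all 77 genes. Cenpc1 encodes the protein that links centromeric chromatin to the rest of the kinetochore. Its ratios with treated RNA in Cy5 were 0.27, 0.15 and 0.41, and with treated RNA in Cy3 0.48, 0.71 and 0.64. All 6 lie above 0, and the Cy3 arrays are higher than the Cy5 arrays without overlap. Cenpc1 rose 1.36-fold (0.44 ± 0.074, 95% interval 0.32 to 0.56, adjusted p = 0.0025). The call held without set 1, 2 or 3 (adjusted p = 0.0136, 2.74e-04 and 0.0447) and on the Cy3 arrays alone, and missed on the Cy5 arrays alone (0.28, adjusted p = 0.113).

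Cenpf, a large coiled-coil protein that accumulates in G2 and binds kinetochores in mitosis, moved the other way. It read -0.28, -0.28 and -0.16 with treated RNA in Cy5 and -0.17, -0.11 and -0.12 in Cy3, so every array showed less transcript. It fell 1.14-fold (-0.19 ± 0.043, adjusted p = 0.0451), the smallest of the 14 changes, and missed the threshold without set 1, 2 or 3 (adjusted p = 0.128, 0.0924 and 0.204).

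Cenpk, a subunit of the constitutive centromere complex, had the lowest mean of the centromere genes but differed between sets. Its values were -0.34, -0.19 and -0.94 with treated RNA in Cy5 and -0.12, 0.17 and -0.84 in Cy3. Both arrays of set 3 are far below the other sets. The mean, -0.38 ± 0.46, did not pass (adjusted p = 0.182), and without set 2 it did (-0.56, adjusted p = 0.00237). Cenph, of the same complex, was below 0 on 6 of 6 arrays but missed the threshold (-0.16 ± 0.021, adjusted p = 0.0646). Cenpa, the histone H3 variant that marks the centromere, was also below 0 on 6 of 6 arrays without passing (-0.095 ± 0.021, adjusted p = 0.231). The other subunits of that complex tested, Cenpm, Cenpo, Cenpp, Cenpu, Cenps and Cenpx, had means between -0.14 and -0.033, and Cenpb, which binds satellite DNA, and Cenpv were at -0.027 and -0.13. Cenpq was the only other one above 0, at 0.14 ± 0.082 (adjusted p = 0.125), and its arrays divide by dye, with means of 0.33 in Cy5 and -0.037 in Cy3.

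Among kinesins the clearest change was in a transport motor. Kif3c, a heavy chain of the kinesin-2 type, read -0.37, -0.34 and -0.26 with treated RNA in Cy5 and -0.50, -0.47 and -0.45 in Cy3. Every value is below -0.25, and the Cy3 arrays are the lower ones without overlap. Kif3c fell 1.32-fold (-0.40 ± 0.041, 95% interval -0.51 to -0.29, adjusted p = 0.0026) and kept its call without any one set (adjusted p = 0.0210, 6.48e-04 and 0.0387). The related heavy chains Kif3b and Kif3a had other values. Kif3b stood at -0.082, -0.40 and -0.16 in Cy5 and -0.14, -0.40 and -0.24 in Cy3, below 0 on 6 of 6 arrays, and just missed the threshold (-0.24 ± 0.15, adjusted p = 0.0629). Kif3a, which forms a pair with Kif3b, was at 0.011 ± 0.047 (adjusted p = 0.911).

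Kif23, the motor of the centralspindlin complex that prepares the cleavage furrow, was the other kinesin that fell. It measured -0.32, -0.38 and -0.23 with treated RNA in Cy5 but only -0.093, -0.081 and -0.067 in Cy3. All values are below 0 and the orientations do not overlap. The mean was -0.19 ± 0.043 (1.14-fold, adjusted p = 0.0387), and Kif23 missed the threshold without set 1, 2 or 3 (adjusted p = 0.110, 0.0965 and 0.187). Kif11, which pushes the spindle poles apart, showed the reverse pattern of dyes, with -0.17, 0.011 and -0.0090 in Cy5 and -0.49, -0.24 and -0.24 in Cy3 (-0.19 ± 0.12, adjusted p = 0.0916). Kif20a, a motor of the central spindle, was below 0 on 6 of 6 arrays (-0.11 ± 0.033, adjusted p = 0.193). The chromosome-arm motors Kif22 and Kif4 were at -0.067 ± 0.082 and 0.0003 ± 0.055, and did not pass.

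The cargo motors outside the kinesin-2 group did not pass. Kif21a, a motor that slows microtubule growth, came nearest (-0.18 ± 0.074, adjusted p = 0.0598). Kif5b, the widely expressed heavy chain of conventional kinesin, had the highest mean of the family, 0.10 ± 0.081 (adjusted p = 0.261, above 0 on 5 of 6 arrays). Its relatives Kif5a and Kif5c, known mainly from neurons, were at -0.097 and -0.087. The other kinesins lay between -0.096 (Kif21b) and 0.012 (Kif9), and Kif2b had a value on 1 array only.

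Tubb6, a beta-tubulin isotype found in many tissues, was the only tubulin that changed. It read 0.12, 0.19 and 0.31 with treated RNA in Cy5 and 0.28, 0.60 and 0.47 in Cy3, above 0 on every array, with orientations that overlap. Tubb6 rose 1.25-fold (0.33 ± 0.11, 95% interval 0.19 to 0.47, adjusted p = 0.0134), and lost the call without set 3 (0.30, adjusted p = 0.147). Tubb2a was above 0 on 6 of 6 arrays at 0.11 ± 0.025 without passing (adjusted p = 0.176). Tubb3, best known from neurons, had a like mean with a wider spread (0.11 ± 0.12, adjusted p = 0.312). Tubb4a and Tubb4b stood at -0.0059 ± 0.15 and -0.074 ± 0.042 (adjusted p = 0.970 and 0.363).

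Of 7 alpha-tubulin genes, 3 were tested and 0 passed by limma, with 0 at an unadjusted p under 0.05. Tuba8 had the highest mean (0.073 ± 0.058), Tuba1c stood at 0.039 ± 0.054 and Tuba4a was lowest (-0.094 ± 0.043). Tuba1a, Tuba1b, Tuba3a, Tuba3b, Tubb2b and Tubb5 lacked a probe measured on all arrays, so the set of tested tubulins is not the whole family. Tubb2b was positive on each of its 5 measured arrays, between 0.048 and 0.39. Tubulin isotypes are alike in sequence, and how far each probe reads its neighbours was not tested.

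Tubgcp4 is not a tubulin but a subunit of the gamma-tubulin ring, the template on which microtubules start. Its ratios were -0.30, -0.27 and -0.29 with treated RNA in Cy5 and -0.39, -0.27 and -0.38 in Cy3, the narrowest range of the 14 changed genes relative to its mean. Tubgcp4 fell 1.25-fold (-0.32 ± 0.038, adjusted p = 0.0062). The call was lost without set 3 (-0.31, adjusted p = 0.0924).

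In the dynein motor, the heavy chain Dync1h1, which carries the motor domain, was at -0.071 ± 0.16 (adjusted p = 0.577), the lowest of its stem, and the intermediate chain Dync1i2, which holds cargo adaptors, at 0.096 ± 0.093 (adjusted p = 0.313), the highest. For both, the arrays with treated RNA in Cy5 averaged below 0 (-0.22 and -0.059) and those with it in Cy3 above (0.075 and 0.25). The light chain Dynll1, which also binds many proteins outside dynein, came nearest to passing. Its values were 0.049, 0.058 and 0.028 with treated RNA in Cy5 and 0.23, 0.42 and 0.20 in Cy3, all above 0 and without overlap (0.17 ± 0.066, adjusted p = 0.0759). Fitted on single arrays with a dye term or with the set as a block, Dynll1 passed (adjusted p = 0.0413 and 0.0357). Those fits called 16.6% and 20.3% of all features, against 14.8% in the main fit. With no block Dynll1 did not pass (adjusted p = 0.163), nor on the Cy5 or Cy3 arrays alone (0.641 and 0.1). It also missed without set 1, 2 or 3 (adjusted p = 0.14, 0.251 and 0.26). Dynlrb1, the average of 2 complete probes, was above 0 on 6 of 6 arrays (0.11 ± 0.032, adjusted p = 0.178). Those probes had means of 0.23 and -0.0081, and only the first was above 0 on every array. Dynlt1b had the lowest light-chain mean (-0.064 ± 0.056, adjusted p = 0.451). The other 6 chains, Dync1i1, Dync1li1, Dync2h1, Dync2li1, Dynll2 and Dynlt3, had means between -0.050 and 0.036.

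The Nek kinases included 2 further falls in closely related genes, Nek6 and Nek7, which act together in spindle assembly. Nek6 read -0.14, -0.36 and -0.32 with treated RNA in Cy5 and -0.19, -0.41 and -0.26 in Cy3, with set 1 the weakest in both orientations. It fell 1.21-fold (-0.28 ± 0.11, adjusted p = 0.0219), a call lost without set 3 (-0.28, adjusted p = 0.178). Nek7 read -0.38, -0.32 and -0.47 in Cy5 and -0.15, -0.12 and -0.17 in Cy3, all below 0 and lower with treated RNA in Cy5 without overlap. It fell 1.20-fold (-0.27 ± 0.050, adjusted p = 0.0128), and the call was lost without set 1 (-0.27, adjusted p = 0.0551) and without set 3 (-0.24, adjusted p = 0.153). Each of these genes has a second probe measured on few arrays. The second Nek7 probe had a value of 2.90 on 1 array, and with zeros kept as ratios, so that this probe entered the average, Nek7 stood at 0.11 (adjusted p = 0.831). Nek3, Nek4 and Nek8 did not pass, with means of -0.073, -0.019 and -0.062, Nek4 being the highest of the family.

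**Figure D3:**
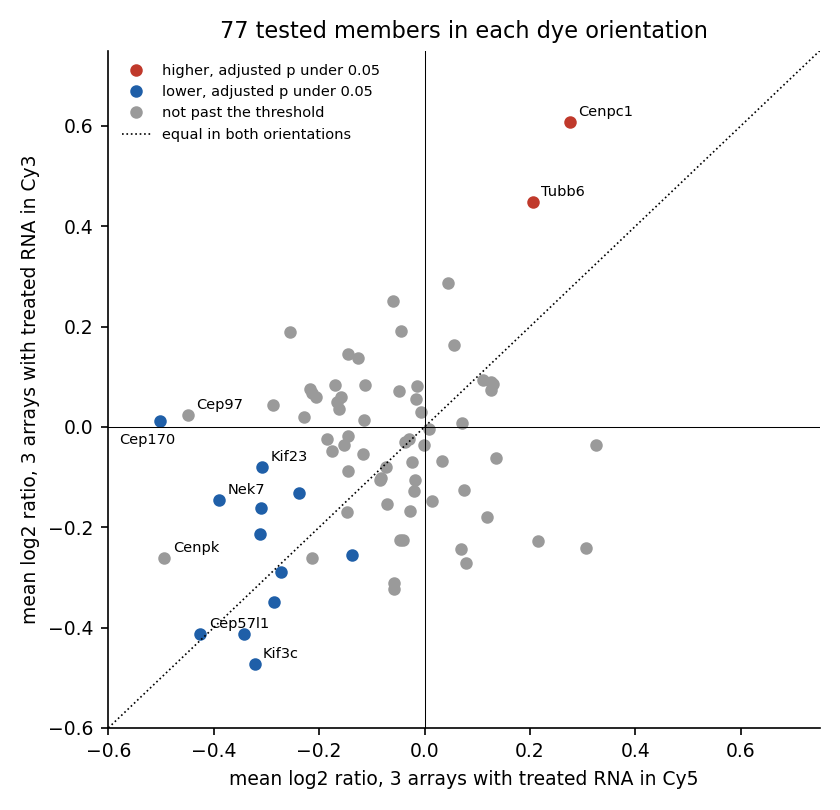
Mean log2 ratio of each of the 77 tested genes on the 3 arrays with treated RNA in Cy5 (x axis) and the 3 with treated RNA in Cy3 (y axis), signs turned so that both measure treated over untreated. A gene on the dotted line has the same value in both orientations. Cep57l1 lies close to it (-0.43 and -0.41), whereas Cep170 (-0.50 and 0.012) and Cep97 (-0.45 and 0.023) lie near the horizontal axis.

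Dye orientation moved with the values of these genes about as often as with those of all features. In a fit with a gene-wise dye term, 20 of the 77 genes had an unadjusted p under 0.05 for the dye and 0 passed after adjustment over all features by limma, against 2832 and 56 of the 11231 features. The median of the 77 genes was -0.073 on the Cy5 arrays and -0.037 on the Cy3 arrays. With 3 arrays of 1 orientation, limma called 1 gene (Nek7, on the Cy5 arrays) and 2 genes (Cenpc1 and Kif3c, on the Cy3 arrays). The part of dye in the other differences between orientations was not tested further.

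Genes of the same machinery outside the 9 name stems were read from 6 lists, chosen with earlier results of these data known. The lists hold 163 genes, 101 of them tested. Of these 17 (16.8%) were lower, 4 (3.96%) higher and 80 did not pass, beside 7.45% lower and 7.35% higher over all features. The list of spindle checkpoint and mitotic regulators had 6 of 23 lower and 1 higher (median -0.053). In it Ttk, the kinase that starts the checkpoint, fell by 0.37 on the log2 scale (SD 0.043, adjusted p = 0.0035), Incenp of the chromosomal passenger complex by 0.27, the kinetochore protein Zw10 by 0.24 and the checkpoint protein Bub1b by 0.23. With treated RNA in Cy5, Ttk, Incenp and Zw10 averaged -0.50, -0.42 and -0.41, but in Cy3 only -0.24, -0.13 and -0.065. Bub1b went the other way, with -0.17 in Cy5 and -0.29 in Cy3. Pttg1, the securin that restrains separase, rose by 0.38 (SD 0.12, adjusted p = 0.00813). At the kinetochore beyond the Cenp names, 2 of 12 fell and 0 rose (median -0.11). They were Sgo1, which protects centromeric cohesion (-0.43 ± 0.088, adjusted p = 0.00339), and Ska2, which couples kinetochores to microtubules (-0.38 ± 0.016, adjusted p = 0.00285). Ska2 averaged -0.20 with treated RNA in Cy5 and -0.55 in Cy3, a gap that the SD of sets does not show. By limma on 1 orientation its adjusted p was 0.118 and 0.018. Sgo1 averaged -0.44 and -0.41. Centriole genes beyond the Cep names had 3 of 20 lower and 0 higher, with a median of 0.0012: Haus4 of the augmin complex (-0.28), the centriole duplication factor Stil (-0.28) and the centriole protein Poc5 (-0.25).

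Partners of the motors also held changes. Of 8 tested kinesin partners and C-terminal kinesins, 3 fell and 0 rose (median -0.085). They were the minus-end motors Kifc3 (-0.60 ± 0.14, adjusted p = 0.00182) and Kifc1 (-0.28, adjusted p = 0.0199) and the kinesin light chain Klc4 (-0.38, adjusted p = 0.00334). Kifc3 thus fell further (1.52-fold) than any gene chosen by name. Dynein adaptors and dynactin had 3 of 13 lower and 1 higher (median 0.016). The related adaptors Ndel1 and Nde1 lay on opposite sides: Ndel1 rose by 0.44 (SD 0.014, adjusted p = 0.00151) and Nde1 fell by 0.26 (SD 0.065, adjusted p = 0.0168). With treated RNA in Cy5 Ndel1 averaged 0.62 and Nde1 -0.14, and with it in Cy3 0.26 and -0.38. By limma on 1 orientation, Ndel1 missed the threshold in Cy3 (adjusted p = 0.0822) and Nde1 in Cy5 (adjusted p = 0.249). Their binding partner Pafah1b1, known as LIS1, fell by 0.23 and Numa1, which anchors dynein at the spindle poles, by 0.25. Among tubulin chaperones and microtubule-associated proteins 2 of 25 rose and 0 fell: the severing enzyme gene Katna1 (0.35 ± 0.052, adjusted p = 0.0046) and Mapre1, which encodes the plus-end protein EB1 (0.20 ± 0.041, adjusted p = 0.0332). Only Kifc3, Ndel1 and Ska2 of the 21 kept their call whichever set was left out. The count was 8 (7.92%) without set 1, 18 (17.8%) without set 2 and 4 (3.96%) without set 3. Over all features the share was 9.4%, 15.0% and 5.01%.

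**Figure D4:**
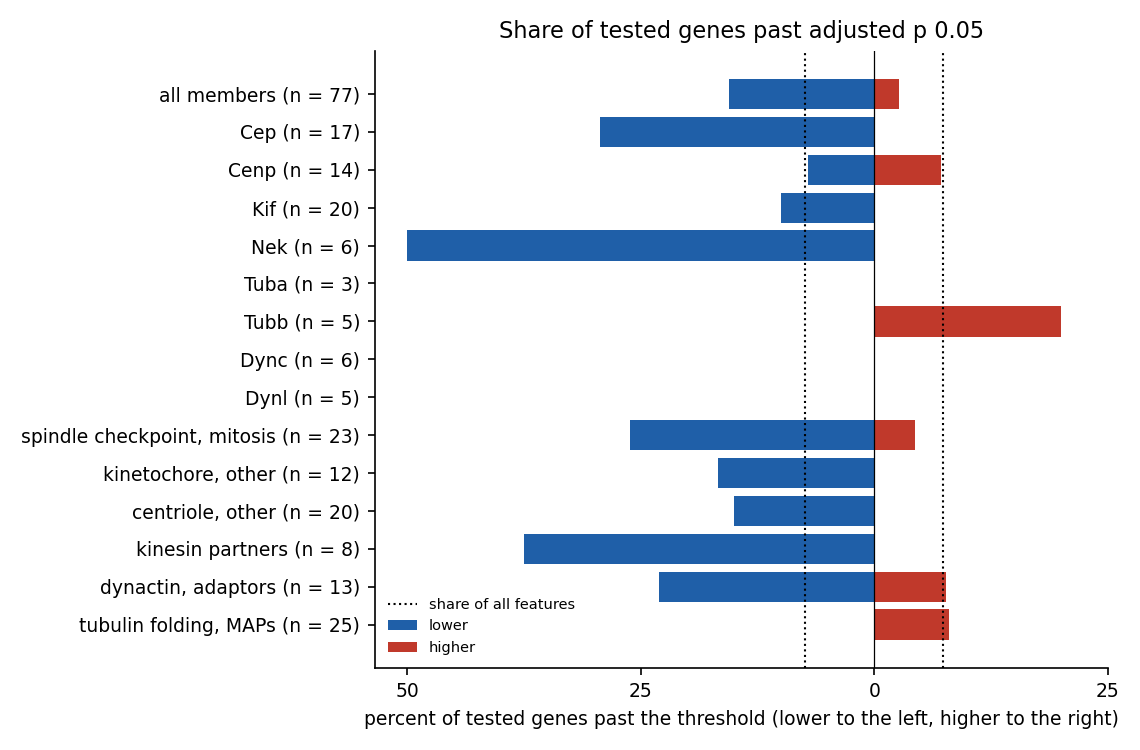
Percent of tested genes lower (blue, to the left) and higher (red, to the right) past an adjusted p of 0.05, for the 77 genes, each family with more than 1 tested gene and the 6 lists of related genes. Dotted lines mark the shares over all features, 7.45% lower and 7.35% higher, and the number tested is beside each name. The left bars of Cep, Kif, Nek and of every list but tubulin folding reach past the left line, and those of Tuba, Dync and Dynl are empty.

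Promoters of 3 of the genes that fell, all of them expressed mainly late in the cell cycle, are printed to show the elements that this class of genes is known for: CCAAT boxes, bound by NF-Y, and the cell cycle homology region TTTGAA. They were chosen after the values were seen. Each window of 300 bases runs from 250 before to 50 after the RefSeq start on GRCm38.p6, read 5' to 3' on the gene's strand, and capitals mark CCAAT (or ATTGG on the other strand) and TTTGAA (or TTCAAA). Cenpf lies at chr1:189688037-189688336 on the minus strand, Kif23 at chr9:61946750-61947049 on the minus strand and Nek2 at chr1:191821223-191821522 on the plus strand.
Cenpf: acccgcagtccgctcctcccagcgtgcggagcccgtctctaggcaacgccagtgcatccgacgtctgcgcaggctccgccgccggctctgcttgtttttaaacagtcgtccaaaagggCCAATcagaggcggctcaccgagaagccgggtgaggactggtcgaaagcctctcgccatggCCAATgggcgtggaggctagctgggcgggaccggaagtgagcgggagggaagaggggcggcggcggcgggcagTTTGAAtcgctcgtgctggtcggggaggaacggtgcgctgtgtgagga
Kif23: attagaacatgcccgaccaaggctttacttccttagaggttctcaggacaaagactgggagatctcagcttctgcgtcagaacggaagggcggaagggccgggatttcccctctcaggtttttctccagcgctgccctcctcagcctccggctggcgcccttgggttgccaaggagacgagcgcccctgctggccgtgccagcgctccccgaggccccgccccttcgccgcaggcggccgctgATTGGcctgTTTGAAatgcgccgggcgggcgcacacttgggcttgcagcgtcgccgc
Nek2: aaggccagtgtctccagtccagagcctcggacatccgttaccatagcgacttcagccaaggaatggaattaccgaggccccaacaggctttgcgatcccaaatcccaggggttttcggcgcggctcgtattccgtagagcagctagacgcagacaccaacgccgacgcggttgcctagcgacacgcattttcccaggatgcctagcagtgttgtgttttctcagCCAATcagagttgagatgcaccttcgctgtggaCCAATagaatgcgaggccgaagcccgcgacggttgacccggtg

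Of the 84 genes, 74 had a window in that table, among them 12 of the 12 that fell. Searched on both strands, CCAAT was present in 6 of those 12, in 35 of the 74 (47.3%) and in 37.9% of all 27025 promoters. TTTGAA was in 3 of the 12 (Cenpf, Cep57l1 and Kif23), in 15 of the 74 (20.3%) and in 18.1% of all. The E2F sequences TTTCGCGC or TTTGGCGC were in 0.833% of all promoters and in 0 of the 74, and the NF-kappaB motif was in 8.18% of all and in 4 of the 74, of which Kif23 fell. These are matches of letters in a window and show no binding.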

How the data were processed

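The authors deposited log2 ratios of Cy5 over Cy3, 1 per probe and array, for 16281 probes on 6 arrays. The base was taken from the values: 87.3% to 92.8% of them are whole at 7 decimals of log10, to 0.001 of the last decimal, against at most 0.284% for other bases. The direction is not stated and was taken from the labels' channels: on all 6 turned arrays 10 of 10 genes that LPS is known to induce were positive. For the authors' background correction, dye normalization and scanner nothing was given in the sources used, spot intensities were not used, and the number of arrays limits precision.

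Exact zeros were read as missing. Platform annotation gave 13738 probes 1 symbol, 52 several and 2491 none. Probes measured on all 6 arrays were averaged per gene, which gave 11231 features (9472 named genes). Arrays with treated RNA in Cy3 were turned and the arrays of a set averaged. The test of the 3 sets against 0 used lmFit and eBayes of limma 3.58.1 (R 4.3.3), as a two-sided test with 4.16 prior degrees of freedom. The fit was tested on simulated data. Set numbers in the titles pair the arrays. Before signs were turned, deviations of same-numbered arrays correlated at 0.41, 0.45 and 0.15. Turning the Cy3 array of each pair reverses the sign of this correlation. It therefore does not measure agreement between the arrays of a set in treated over untreated. On the turned ratios limma's estimate of the correlation within sets was -0.441, and -0.0552 with a dye term.

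The genes named are all those past the threshold, the highest and lowest tested mean of each family, and up to 5 genes of each list of related genes, those past the threshold or with the 2 largest values. Others were named after their values were seen. The genes, families and lists were chosen with earlier results of these data known. All 84 genes matched RefSeq by gene ID, and promoters come from RefSeq (GRCm38.p6). Alternatives were set as block, dye term, 1 orientation, centring, quantile scaling, missing values, probes and left-out sets. Protein sequences were not analysed here.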

Additional observations from a re-analysis of the deposited data

Results flagged for a closer look

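Some probes were positive on every array of one dye orientation and negative on every array of the other, once turned to treated over untreated. The difference below is the mean with treated RNA in Cy5 minus that in Cy3, and none was tested on its own. It was -5.16 on the second probe of Nek4 (-2.99, -2.61 and -1.93 against 2.69 and 2.61, with 1 array missing), while the complete Nek4 probe stood between -0.14 and 0.087. This second probe is left out of the main values and enters only where missing values were allowed or zeros kept. The second Nek6 probe, measured on 1 array of each orientation, read -3.38 and 3.19. The difference was -0.28 for Cep70 (-0.16, -0.28 and -0.20 against 0.055, 0.12 and 0.026). It was 0.32 for 1 of the 2 complete Kif5a probes and 0.44 for the complete Tubb4a probe. The Tuba1b probe, measured on 5 arrays, differed by 0.47 (0.21, 0.044 and 0.16 against -0.33 and -0.34).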

How the results depend on the processing

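The count of 14 changed genes (2 higher, 12 lower, in 6 of 9 families, with 5 Cep and 3 Nek genes lower) and the 21 changed list genes depended on the set left out and on the dye orientation. Leaving out each set gave 3 to 11 changed genes, 1 to 2 higher and 2 to 9 lower, 3 to 6 families, 1 to 4 Cep and 0 to 2 Nek genes, 4 to 18 list genes, and a median between -0.083 and -0.063. Of the 14, only Cep57l1, Cenpc1 and Kif3c kept their call without any one set. The low end is without set 3, where 3 genes (3.9%) passed, 1 higher and 2 lower, against 563 features (5.01%). Without set 1, 9 passed (11.7%, against 9.4% of all features), 2 higher and 7 lower. Without set 2, 11 passed (14.3%, against 15.0% of all features), 2 higher and 9 lower.

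Set as a replicate block on single arrays called 20 genes (3 higher, 17 lower) in 7 families, 5 Cep and 3 Nek genes lower and 27 list genes, and kept all 14. The 20 genes are 26.0% of those tested, against 20.3% of all features. With no block, 13 passed (16.9%, against 12.3% of all features), 3 Cep genes among them, and Cep170, Cep250 and Kif23 were lost. A dye term called 18 (23.4%, against 16.6% of all features, 3 higher, 15 lower) and lost Cep250. The same counts came with the set as a replicate block added, a fit chosen after seeing the data. The Cy5 arrays alone called 1 (0 higher, 1 lower, 1 family, 0 Cep, 1 Nek, 6 list genes) and the Cy3 arrays alone 2 (1 higher, 1 lower, 2 families, 0 Cep, 0 Nek, 5 list genes, median -0.037). They are 1.3% and 2.6% of the tested genes, against 5.69% and 5.83% of all features. At an unadjusted p under 0.05 these gave 26 and 20 of the 77 genes, against 2979 and 3066 of all 11231 features. Among them were 5 higher on the Cy5 arrays, 8 and 3 Cep genes lower, and 2 Nek genes lower on the Cy3 arrays. With missing values allowed 8 passed (9.64%, against 10.9% of all features, 2 higher, 6 lower, 0 Nek, with 2 Nek unadjusted), and Cep250, Cenpf, Kif23 and the Nek genes were lost. With zeros kept as ratios 5 passed (5.95%, against 7.27% of all features, 1 higher, 4 lower, 2 Cep, 0 Nek, with 2 Nek unadjusted, 12 list genes, median -0.060). Against 1.5-fold, 0 genes, 0 families, 0 Cep, 0 Nek and 0 list genes passed by limma, 0 also unadjusted. Among the 14 changed genes the direction of 2 turned: Cep170 to 0.012 on the Cy3 arrays alone, and Nek7 to 0.11 with zeros kept, where its second probe entered. Centring arrays and quantile scaling each kept all 14 calls and the sign of every family median. Elsewhere medians near 0 changed sign: Dync to 0.045 on the Cy3 arrays and 0.033 without set 3, Dynl to -0.015 on the Cy5 arrays and -0.017 without set 2, and Tuba to -0.045 on the Cy5 arrays.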
